A study of Mus musculus with 3 samples.

Results

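The cells described here were dermal fibroblasts with at least 20 unique transcript counts (UMIs) summed over the acute-phase genes Saa3, Hp and Lcn2. They numbered 369 of 13214 fibroblasts, and of 32377 cells kept in the 3 libraries. Kept cells had 500 or more detected genes, and mitochondrial UMIs made up no more than 10% of each. A kept cell was taken as a fibroblast when Dcn, Lum, Col1a1, Col1a2 and Col3a1 made up at least 1% of its UMIs and when Ptprc, Epcam and Cdh5, which mark leukocytes, epithelium and endothelium, had 0 UMIs. The acute-phase cells were thus selected on the summed UMIs of Saa3, Hp and Lcn2, so the levels of these genes in them, and every other difference between these cells and the remaining fibroblasts, are given as description without a test.

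The libraries came from full-thickness dorsal skin of wild type C57BL/6J mice labelled as female and 8 weeks old, profiled by droplet 3' single-cell RNA sequencing. CON was the control without irradiation, and the study describes CON and UV as given the vehicle alone. UV was irradiated on alternate days over 12 weeks with a mixture of UVA (0.60 mW/cm2) and UVB (3.5 mW/cm2), and Rux had the same irradiation followed directly by ointment with 1.5% ruxolitinib, an inhibitor of the kinases JAK1 and JAK2. Skin was collected 24 h after the last exposure. Each condition was 1 library, and the number of mice behind it is not given in the sources used here. No difference between conditions has a replicate check, and a difference between libraries cannot be told apart from a difference between conditions; the intervals below are 95% intervals that cover counting error only. The deposited matrices held 13170 cells with 165337289 UMIs in CON, 12411 cells with 133972374 UMIs in UV and 11287 cells with 131570327 UMIs in Rux. The label of sex was at odds with the counts: Xist, the RNA that coats the inactive X chromosome, had 0 UMIs in the acute-phase cells of all 3 libraries, whereas the Y-linked gene Ddx3y stood at 158, 135 and 98.0 CPM (UMIs per 1000000 UMIs summed over the cells of a group) in CON, UV and Rux.

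Acute-phase proteins are secreted proteins, most of them known from the liver, whose production climbs within hours of injury or infection. Interleukin-6 acting through gp130, JAK kinases and STAT3, together with interleukin-1, NF-kB and the C/EBP factors, is the textbook route to their transcription. Saa3 is the serum amyloid A made mainly outside the liver, Hp is haptoglobin, which captures free haemoglobin, and Lcn2 is lipocalin-2, which binds bacterial siderophores and so withholds iron from bacteria. Fibroblasts, macrophages, epithelia and endothelium can all make these proteins locally.

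The 300-base windows from 250 bases before to 50 bases after the annotated start of Saa3 and Lcn2 (RefSeq, GRCm38.p6) are shown because these genes define the cells and their windows hold a C/EBP motif, which is in capitals. The Saa3 window lies on the minus strand at chr7:46715627-46715926 and the Lcn2 window on the minus strand at chr2:32387690-32387989; both are written 5′ to 3′ along the gene.
Saa3: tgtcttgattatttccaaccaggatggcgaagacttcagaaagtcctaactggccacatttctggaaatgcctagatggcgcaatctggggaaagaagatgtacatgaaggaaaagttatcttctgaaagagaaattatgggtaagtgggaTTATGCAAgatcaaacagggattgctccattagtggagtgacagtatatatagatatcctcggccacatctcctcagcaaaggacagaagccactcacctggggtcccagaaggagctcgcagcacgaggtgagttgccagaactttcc
Lcn2: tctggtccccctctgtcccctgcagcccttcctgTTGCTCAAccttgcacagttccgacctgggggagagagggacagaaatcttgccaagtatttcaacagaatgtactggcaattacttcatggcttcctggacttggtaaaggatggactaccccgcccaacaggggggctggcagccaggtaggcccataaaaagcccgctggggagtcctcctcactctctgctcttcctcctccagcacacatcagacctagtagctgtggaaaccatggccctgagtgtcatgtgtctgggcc
The motif searched, on both strands, was TTGCNNAA, and it occurred in 10.8% of 32851 windows of that length. In the Saa3 window it read TTATGCAA, from base -99 to base -92 relative to the start, and in the Lcn2 window TTGCTCAA, from base -216 to base -209. The STAT motif TTCNNNGAA, present in 8.30% of windows, the AP-1 motif TGANTCA, present in 7.81%, and the kappaB motif, present in 4.51%, had no match in either window. Of other genes described below, Timp1, Tnc, Serpina3n and Chl1 had no match to any of the 4 motifs, Saa1 and C3 had 1 C/EBP match each, Mmp3 had 1 C/EBP and 1 AP-1 match, and Steap4 had 1 STAT, 1 C/EBP and 2 kappaB matches. Il33 had 2 windows, of which 1 had 1 C/EBP match. No window was used here for Hp, Csf3, Cfb and Lbp. A match is a run of letters and not a measured binding site.

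Acute-phase cells made up 0.640% of CON fibroblasts (21 of 3283, exact Clopper-Pearson interval 0.396 to 0.976%). They made up 1.28% of UV fibroblasts (66 of 5160, 0.991 to 1.62%) and 5.91% of Rux fibroblasts (282 of 4771, 5.26 to 6.62%). The Rux share lay above the other two, with intervals that did not touch, and the UV interval began just above the end of the CON interval. Depth moved with the condition: the median fibroblast outside the acute-phase group had 5803 UMIs in CON, 7002.5 in UV and 9435 in Rux, and the median acute-phase cell 9704, 11669 and 17118. When each fibroblast was thinned to 4000 UMIs, with 28.7%, 23.3% and 13.7% of fibroblasts too shallow to enter, and the rule was lowered to 8 UMIs, the shares were 1.03%, 1.69% and 6.00%, and the CON and UV intervals then overlapped. With a rule of 0.2% of a cell's own UMIs they were 0.731%, 1.53% and 5.78%. Just outside the boundary lay 28 fibroblasts at 18 or 19 UMIs of the 3 genes and just inside it 22 at 20 or 21. UV cells lay nearest to it, with 37 of 66 acute-phase cells at 20 to 29 UMIs and 53 further fibroblasts at 10 to 19, against 5 of 21 and 13 in CON and 43 of 282 and 98 in Rux. With a rule of 40 UMIs the shares were 0.305% in CON (0.146 to 0.559%), 0.368% in UV (0.222 to 0.574%) and 4.30% in Rux (3.74 to 4.91%), so that CON and UV overlapped. Without fibroblasts with traces of other cell types, meaning any UMI of 8 genes of such cells, 3 CON cells (0.270%), 27 UV cells (1.04%) and 66 Rux cells (4.11%) were left. Without the cluster of fibroblasts that held most Rux cells, described below, the Rux share was 1.90%.

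**Figure D1:**
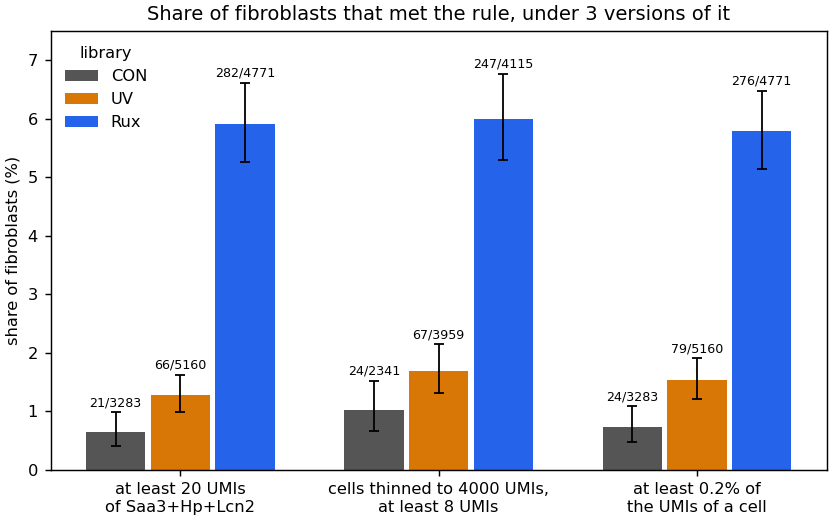
Share of fibroblasts in percent (vertical axis, from 0) that met the rule in CON, UV and Rux, under the rule itself, after thinning and with a rule relative to each cell's UMIs. Bars are single libraries, error bars are 95% Clopper-Pearson intervals, and the Rux bars lie between 5.78 and 6.00% under all 3 versions.

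Saa3 carried the rule in most cells. The median acute-phase cell had 39 UMIs of the 3 genes in CON, 28 in UV and 90 in Rux, and the highest had 229, 366 and 1189. Saa3 gave more than 50% of these UMIs in 20 of 21 CON cells, 55 of 66 UV cells and 236 of 282 Rux cells, Hp in 1, 8 and 36 cells, and Lcn2 in 0, 2 and 6 cells. The 3 libraries differed in how often the genes came together. All 3 genes were detected in 0 of 21 CON cells, which allows a share of up to 14.3% (3 of the 21 cells), in 15.2% of UV cells (7.51 to 26.1%) and in 36.5% of Rux cells (30.9 to 42.4%), whereas Saa3 without any Hp or Lcn2 was seen in 81.0%, 30.3% and 11.3%. Detection rises with depth, and after thinning to 4000 UMIs all 3 genes were detected in 0 of 21 CON cells, 7.69% of 65 UV cells (2.54 to 17.05%) and 17.1% of 275 Rux cells (12.8 to 22.1%), so that the UV and Rux intervals overlapped.

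Saa3 (chr7:46711998-46715700, minus strand, mm10) stood at 5596, 3018 and 7041 CPM in the acute-phase cells of CON, UV and Rux, against 12.3, 25.9 and 34.5 CPM in the other fibroblasts. Hp (chr8:109575128-109579172, minus strand) stood at 158, 473 and 1077 CPM against 3.19, 15.3 and 25.8 CPM, and 89.2% of its CON UMIs came from 1 cell. Lcn2 (chr2:32384633-32388252, minus strand) stood at 4.27, 288 and 518 CPM against 6.34, 18.7 and 17.6 CPM. The CON value of Lcn2 was 1 UMI in 21 cells, so the CON cells were Saa3 cells for the most part, with little Hp and too few Lcn2 UMIs to set them apart from other fibroblasts.

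The acute-phase fibroblasts held 61.9% of all Saa3 UMIs of kept cells in CON, 46.9% in UV and 77.5% in Rux. They held 6.096%, 15.6% and 53.1% of Hp and 0.00833%, 4.25% and 29.5% of Lcn2. Larger holders of the other two genes lay elsewhere in CON and UV. In CON, cells with Ptprc held 66.2% of Hp and cells with Cdh5 held 60.7% of Lcn2, at 744 CPM. In UV, cells with Cdh5 held 51.5% of Lcn2, and 27.9% of Hp lay in cells that were neither fibroblasts nor positive for Ptprc, Epcam or Cdh5. Traces of Saa3 were spread more widely in Rux, where 14.1% of the other fibroblasts had at least 1 UMI, against 1.81% in CON; after thinning to 4000 UMIs the shares were 7.21% and 1.42%. The part of free RNA in these traces was not tested.

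**Figure D2:**
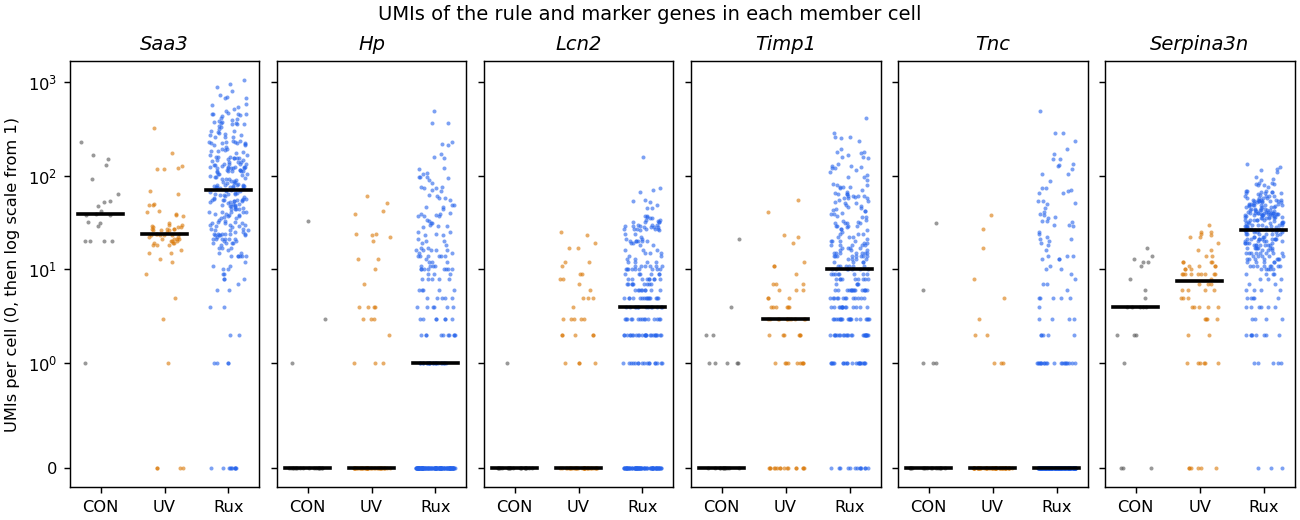
UMIs per cell of Saa3, Hp, Lcn2, Timp1, Tnc and Serpina3n (vertical axis, 0 and then a log scale from 1) in every acute-phase cell of CON (21 cells), UV (66) and Rux (282). Points are cells and black lines are medians, and the Lcn2 median lies at 0 in CON and UV and at 4 UMIs in Rux.

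Of the 3 marker genes outside the rule, Serpina3n was high in all libraries and the other two mainly in Rux. Serpina3n (chr12:104406729-104414329, plus strand), a secreted inhibitor of serine proteases and an acute-phase protein in its own right, stood at 533, 702 and 1682 CPM in the acute-phase cells of CON, UV and Rux. The other fibroblasts had 166, 260 and 353 CPM, a log2 ratio of 1.69 (1.42 to 1.94) in CON, 1.43 (1.31 to 1.55) in UV and 2.25 (2.22 to 2.29) in Rux. Timp1 (chrX:20870166-20874735, plus strand), an inhibitor of matrix metalloproteinases, stood at 145, 418 and 1637 CPM against 134, 167 and 142 CPM. Its summed level was thus near that of other fibroblasts in CON, where 61.8% of its 34 UMIs came from 1 cell. In Rux it was 3.53 higher on the log2 scale. Tnc (chr4:63959785-64047015, minus strand), which encodes the wound matrix protein tenascin C, stood at 171, 131 and 802 CPM against 80.3, 151 and 126 CPM. In CON 77.5% of the Tnc UMIs came from 1 cell, and in UV the level was not above that of other fibroblasts. The summed levels of Saa3, Hp, Lcn2, Timp1, Tnc and Serpina3n were thus all above those of other fibroblasts in Rux, but most single Rux cells did not carry the full set, since Hp was detected in 54.3% and Tnc in 33.7% of them.

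At matched depth the shares of cells with a UMI rose from CON to UV to Rux for Timp1 and Lcn2, but not for Tnc. After thinning to 4000 UMIs, Timp1 was detected in 23.8% of CON, 58.5% of UV and 80.7% of Rux acute-phase cells (without thinning 42.9%, 75.8% and 95.4%), against 25.1%, 26.5% and 23.6% of thinned other fibroblasts. Lcn2 was detected in 0, 32.3% and 54.9% (without thinning 4.76%, 48.5% and 71.6%), against 1.90%, 4.65% and 4.74%. Tnc was detected in 14.3% of thinned CON and 13.8% of thinned UV acute-phase cells. It reached only 26.2% of thinned Rux cells, so its high summed level there came from a minority of cells, 1 of which had 485 UMIs.

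Across 8235 genes with at least 10 CPM in the mean of the 6 sums, 14 genes (0.17%) were at least 2-fold higher in the acute-phase cells than in other fibroblasts in each of the 3 libraries. A further 25 genes (0.304%) were at least 2-fold lower in each. Where a gene at 0 UMIs was set to the limit that a count of 0 allows (3 UMIs of the sum, 12.8 CPM in CON, 3.74 in UV and 0.572 in Rux), 12 genes were higher and 19 lower; the 2 that left the higher group were Reg1 and Cemip. With the highest cell of each gene left out, 8 were higher and 48 lower. The background per library was 5.74% higher and 9.37% lower in CON, 1.34% and 2.98% in UV, and 1.89% and 3.85% in Rux, the larger CON values going with its small sum of 234446 UMIs against 801932 in UV and 5242513 in Rux. The median log2 ratio over all genes was -0.00 in CON, -0.03 in UV and -0.14 in Rux, and the ratios below are read against that shift.

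Saa3 and Hp were among the 14 genes, and the others that were abundant enough to name were Chl1, Depdc5, Serpina3n, Csf3 and Mmp19. Grb14, Cfap69, Isyna1, Cd320 and CR974586.4 were the less abundant ones. Reg1 and Cemip were counted only through the 0.5 UMI added to sums at 0 in CON and were not higher there. Reg1, a secreted C-type lectin known from pancreas, had 0 UMIs in all CON fibroblasts and stood at 17.5 and 58.4 CPM in UV and Rux against 0.0534 and 0.457 CPM. Cemip, a hyaluronan-degrading protein, was at 0 in CON acute-phase cells and stood at 62.8 CPM against 3.09 CPM in Rux. Chl1, a cell adhesion molecule of the L1 family known from neurons, stood at 435, 218 and 314 CPM in CON, UV and Rux against 57.6, 60.9 and 36.8 CPM. Its log2 ratio was 2.92 (2.61 to 3.21), 1.84 (1.61 to 2.06) and 3.09 (2.99 to 3.19), and it was detected in 8 of 21, 33 of 66 and 217 of 282 cells. Outside the rule genes, Chl1 had the highest smallest ratio over the 3 libraries of the genes abundant enough to name. Csf3, the neutrophil growth factor G-CSF, stood at 235, 81.1 and 150 CPM against 24.9, 30.8 and 26.5 CPM, although 72.7% of the CON UMIs came from 1 cell. Depdc5, a component of the GATOR1 complex that restrains mTORC1, stood at 115, 218 and 481 CPM against 41.1, 79.6 and 91.1 CPM, again with 74.1% of the CON UMIs from 1 cell. Mmp19, a matrix metalloproteinase, stood at 98.1, 77.3 and 186 CPM against 38.5, 38.3 and 88.1 CPM.

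A further 5 genes were higher in each library by ratios near or above the 2-fold line. Cfb, complement factor B of the alternative pathway, stood at 222, 485 and 866 CPM against 122, 244 and 164 CPM, so that its log2 ratio was 0.88 (0.44 to 1.26) in CON, 0.99 (0.84 to 1.14) in UV and 2.40 (2.34 to 2.45) in Rux. Cyp7b1, an oxysterol hydroxylase, stood at 98.1, 98.5 and 218 CPM against 51.8, 38.4 and 44.6 CPM, and Fkbp11, a peptidyl-prolyl isomerase of the secretory pathway, at 72.5, 67.3 and 93.3 CPM against 37.4, 25.2 and 21.3 CPM. The lysosomal protease Ctsh and the unnamed locus AI506816 had log2 ratios of 0.88 and 0.87 in CON, 1.03 and 1.03 in UV, and 1.12 and 1.77 in Rux.

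The lower genes included Thbs4, Acta2, Timp3 and Coch. Thbs4, a thrombospondin of tendon and muscle matrix, had 0, 8 and 87 UMIs, which gave 0, 9.98 and 16.6 CPM against 174, 64.1 and 92.6 CPM in other fibroblasts and was at least 13.6-fold lower in CON. Acta2, smooth muscle actin and the standard myofibroblast marker, stood at 29.9, 4.99 and 13.4 CPM against 139, 74.6 and 81.7 CPM. Timp3, a matrix-bound metalloproteinase inhibitor, stood at 136, 181 and 109 CPM against 412, 468 and 436 CPM, so Timp1 and Timp3 differed in opposite directions in UV and Rux. Coch, which encodes the matrix protein cochlin, was at 0 in CON, at least 5.40-fold lower than in other fibroblasts, and at 3.74 and 38.0 CPM in UV and Rux against 251 and 137 CPM, 74.4% of the Rux UMIs being from 1 cell; its log2 ratio in Rux was 0.0858 without fibroblasts with traces of other cell types. Abca8b, Pde3a, Smpd3, Sparcl1, Bach2 and Sgcd were lower by log2 ratios between -0.87 and -2.15 in all 3 libraries. The CON value of Bach2 rested on 5 UMIs, and its interval of -2.66 to 0.20 included no difference.

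**Figure D3:**
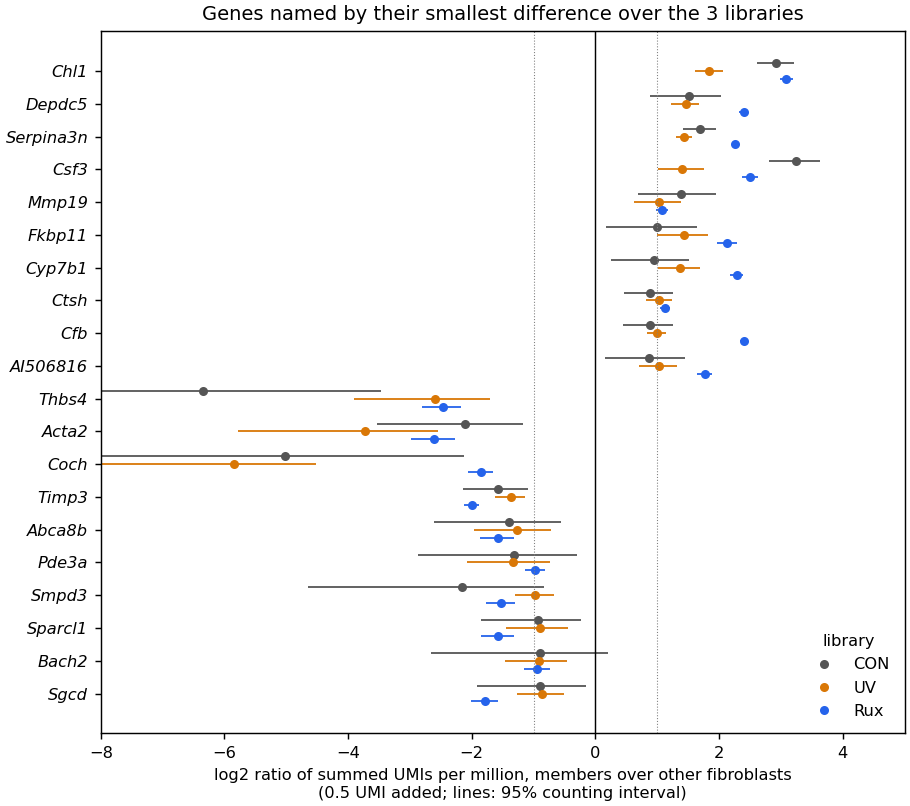
Log2 ratio of CPM in acute-phase cells over other fibroblasts of the same library (horizontal axis) for 20 genes, 10 higher and 10 lower, ranked by the smallest of their differences in CON, UV and Rux. Points are single libraries, lines are 95% counting intervals that continue past the axis where they reach its left end, dotted lines mark 2-fold, and Chl1 stands at 2.92, 1.84 and 3.09.

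Of 10 measured acute-phase genes other than the rule genes, 2 were at least 2-fold higher in CON, 4 in UV and 6 in Rux, and 1 was lower in CON, Saa1, which was at 0 UMIs in the 21 cells and at 7.47 CPM in other fibroblasts, below the 12.8 CPM that a count of 0 allows in the small sum, so that its difference in CON was not detectable at this depth. The median log2 ratio over the list was 0.35, 0.92 and 1.24. Saa1, a serum amyloid A known mainly from liver, stood at 39.9 CPM in UV and 86.2 CPM in Rux against 2.70 and 5.64 CPM. Lbp, which carries bacterial lipopolysaccharide to CD14, stood at 264, 601 and 909 CPM against 192, 331 and 361 CPM. Steap4, a metalloreductase, stood at 162, 146 and 233 CPM against 132, 74.7 and 55.9 CPM, and the ferroxidase Cp (ceruloplasmin) at 277, 530 and 405 CPM against 226, 254 and 183 CPM. Of 13 complement genes 2, 1 and 1 were at least 2-fold higher and 1, 0 and 1 lower. C3, on which all complement pathways converge, stood at 1054, 3100 and 2505 CPM against 774, 2203 and 1579 CPM, below the 2-fold line in all 3 libraries.

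Of 22 measured chemokines and leukocyte factors, 1 was higher and 5 lower in CON, 4 higher and 2 lower in UV, and 9 higher and 1 lower in Rux, with medians of -0.37, -0.07 and 0.58. With genes at 0 UMIs set to their limit the CON median was -0.21. Cxcl14, a chemokine of resting skin, stood at 473, 657 and 2177 CPM against 321, 244 and 374 CPM, and Cxcl12, the ligand of CXCR4, at 533, 1182 and 1771 CPM against 333, 482 and 777 CPM. Il33, an alarmin of the interleukin-1 family, stood at 29.9 CPM in CON, where other fibroblasts had 106, and at 377 and 360 CPM in UV and Rux, where they had 168 and 107. The abundant inflammatory chemokines Cxcl1, at 2807, 4083 and 4593 CPM, and Ccl2, at 1228, 2914 and 3352 CPM, were within 2-fold of other fibroblasts in each library.

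Few interleukin-6 and JAK-STAT genes passed 2-fold against other fibroblasts. Among 7 measured gp130 cytokines and receptors, only Il11ra1 in Rux passed 2-fold, at 554 CPM against 241 CPM. Among 8 JAK and STAT genes 1 passed it, in CON, and among 17 STAT3 targets and feedback genes 1, Bcl3 in Rux, which was lower at 19.5 CPM against 50.7 CPM. The medians of the STAT3 list were -0.32, 0.06 and -0.44 in CON, UV and Rux, with 6, 9 and 3 of 17 genes above 0, those of the JAK and STAT list -0.08, -0.15 and -0.24, and those of the gp130 list -0.02, 0.10 and 0.05. Il6 stood at 623, 1370 and 491 CPM against 1133, 1113 and 475 CPM. Of 29 genes of the NF-kB, TNF, interleukin-1 and interleukin-17 pathways 1, 0 and 1 were higher and 2, 0 and 0 lower, and the medians of 0.03, 0.00 and -0.08 lay near those of all genes.

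Matrix genes split within families. Mmp3, stromelysin 1, stood at 439, 1242 and 1788 CPM against 265, 397 and 478 CPM. Collagens and their enzymes summed to 46685, 28120 and 31589 CPM against 27587, 21070 and 20725 CPM, the sum being led by Col1a1, Col1a2 and Col3a1, which are part of the fibroblast rule. Within that list 2, 0 and 5 of 33 genes were at least 2-fold higher and 5, 2 and 3 lower. The 5 in Rux were Col3a1, Col5a3, Loxl1, Loxl3 and Serpinh1, of which the Loxl enzymes cross-link collagen and elastin and Serpinh1 is the collagen chaperone HSP47. Of 10 measured genes of the contractile list, 7 were lower in CON, 5 in UV and 5 in Rux, with medians of -1.99, -1.16 and -1.13. The only listed gene past 2-fold higher was Cthrc1 in UV, at 111 CPM against 54.8 CPM, and it also marks a separate fibroblast state. Tagln stood at 4.27, 4.99 and 5.72 CPM against 74.8, 48.8 and 43.7 CPM, its CON value being 1 UMI and its UV value 4 UMIs. The genes Ednrb, Lrrc15 and Col11a1, which mark another fibroblast state of these samples, were all at 0 in CON and summed to 16.2 and 17.2 CPM in UV and Rux, against 171, 144 and 193 CPM. Of these, Lrrc15 and Col11a1 were at least 5.90-fold and 5.54-fold lower in CON, and Ednrb at least 1.92-fold. Igfbp2 and Grem1, which mark a further state, went the other way in CON, where they summed to 503 CPM against 252 CPM. In UV and Rux they summed to 3.74 and 3.24 CPM against 45.1 and 183 CPM.

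Markers of other skin cells were mostly low, and their part in these differences was not tested. The adipocyte list stood apart in CON. It summed to 640, 344 and 453 CPM in CON, UV and Rux against 215, 395 and 467 CPM in other fibroblasts. The list was led by Lpl, lipoprotein lipase, at 520, 314 and 235 CPM against 192, 356 and 406 CPM, with 63.1% of the CON UMIs from 1 cell. Fabp4, also on the list, stood at 102, 28.7 and 218 CPM against 22.4, 38.2 and 60.0 CPM. It was thus more than 2-fold higher in CON and in Rux, where Lpl was lower. Cidec was at 0 in all 3 libraries, Adipoq in CON, and Plin1 in UV and Rux. The 9 neutrophil markers were all at 0 in CON, 7 of 9 were at 0 in UV, and their sum was 0, 2.49 and 37.6 CPM against 5.49, 4.75 and 33.0 CPM in other fibroblasts. In Rux the most abundant of them was Camp at 17.4 CPM, 93.4% of it from 1 cell, while Ltf was at 0 and Csf3r had 1 UMI. The 9 macrophage markers summed to 38.4, 19.95 and 22.5 CPM against 35.4, 22.4 and 23.96 CPM. Keratinocyte markers summed to 307, 311 and 185 CPM against 477, 213 and 229 CPM, so that they were higher in the acute-phase cells of UV, where 7 of 9 markers were higher and 0 passed 2-fold. They were led by Krt14 at 85.3, 97.3 and 54.7 CPM. Endothelial markers summed to 8.53, 64.8 and 27.1 CPM against 23.1, 61.6 and 52.2 CPM, with Cdh5 at 0 by the rule. Fibroblast markers summed to 55582, 33863 and 34403 CPM against 34971, 27397 and 26820 CPM. Doublet scores would have removed 2 of 21, 7 of 66 and 24 of 282 acute-phase cells, or 9.52%, 10.6% and 8.51%, against 3.34%, 6.52% and 7.08% of other fibroblasts. Of cell barcodes, 50 were shared by CON and UV, 28 by CON and Rux and 40 by UV and Rux, and 0 of them belonged to an acute-phase cell in both libraries.

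In a clustering of all fibroblasts made without Saa3, Hp and Lcn2, the Rux cells collected in 1 place and the CON and UV cells did not. Of 19 clusters, 1 with 414 cells, led by Cxcl14, Timp1, Emb, Tmem176a, Chl1 and Cxcl5, held 199 of 282 Rux acute-phase cells (70.6%) and 4.32% of the other Rux fibroblasts. It held 5 of 66 UV acute-phase cells (7.58%) and 0 of 21 CON acute-phase cells, which allows up to 14.3%. Since 393 of its 414 cells came from Rux, it may be that library and not a kind of cell. The CON acute-phase cells lay in 5 clusters, 7 of them in 1 led by Grem1, F13a1 and Igfbp2 and 5 in 1 led by Socs3, Gadd45g and Cebpd, while UV cells lay in 13 clusters and Rux cells in 15. The fibroblast rule also admitted 129 cells of a cluster led by Dct, Ptgds, Tyrp1 and Pmel, genes known from melanocytes, and 108 cells of a cluster led by Spp1, Tenm2 and Reln, of which 0 and 1 were acute-phase cells. Without both clusters the shares were 0.661%, 1.30% and 5.96%. With coarser and finer clusterings, of 14 and 30 clusters, 58.9% and 52.1% of the Rux acute-phase cells shared a cluster.

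The next values describe the Rux acute-phase cells inside and outside that cluster; both the rule and the clustering, which Cxcl14, Timp1 and Chl1 lead, shaped them. The 199 cells inside had a median of 122 UMIs of the rule genes and the 83 outside a median of 39, at 17463 and 16176 median UMIs per cell. Saa3 stood at 8563 CPM inside and 3063 CPM outside, and Lcn2 at 659 and 150 CPM, whereas Hp did not follow, at 1059 and 1124 CPM. Timp1 stood at 2033 and 602 CPM, Tnc at 917 and 501 CPM, and Cxcl14 at 2667 and 896 CPM. The 194 fibroblasts of the cluster that missed the rule were chosen by the clustering too. They had Cxcl14 at 2519 CPM, Serpina3n at 1212 CPM and Mmp3 at 1531 CPM, where the 4295 remaining Rux fibroblasts had 250, 303 and 417 CPM. Their Timp3 was at 143 CPM and their Igfbp2 at 1.99 CPM, against 453 and 183 CPM. Steap4, Lbp and Cfb stood at 256, 849 and 524 CPM in these cells against 44.3, 333 and 144 CPM in the remaining ones. Acute-phase cells had 285, 945 and 1038 CPM of these 3 genes inside the cluster, and 97.9, 815 and 417 CPM outside. These 194 cells had a median of 3 UMIs of the rule genes, and 42 of them had between 10 and 19. Serpinb2, the plasminogen activator inhibitor PAI-2, had 150 CPM in acute-phase cells inside, 42.1 outside, and 3.58 and 5.23 CPM in the other fibroblasts inside and outside.

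**Figure D4:**
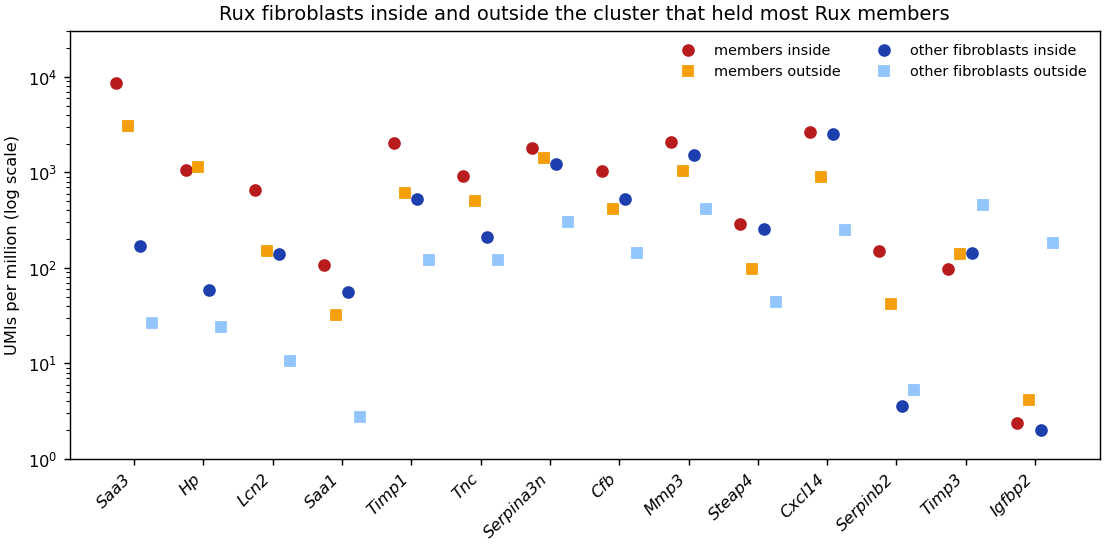
CPM (vertical axis, log scale) of 14 genes in 4 groups of Rux fibroblasts, acute-phase cells inside (199) and outside (83) the cluster that held most of them and other fibroblasts inside (194) and outside (4295); Igfbp2 and Timp3 are highest in the other fibroblasts outside. Points are sums over cells of 1 library, and Cxcl14 stands at 2667, 896, 2519 and 250 in these groups in that order.

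UV over CON compared 66 cells with 21, and the small CON sum widened every interval. Of 8170 genes, 882 (10.8%) were at least 2-fold higher and 1293 (15.8%) at least 2-fold lower in UV acute-phase cells, against 2.14% and 2.12% of the same genes in other fibroblasts, whose sums were far larger. With genes at 0 set to their limit, 853 were higher and 1293 lower, and with sums scaled by the median of ratios over genes 1132 were higher and 995 lower. The median over all genes was -0.14 in the acute-phase cells and -0.10 in other fibroblasts. Prg4, which encodes the lubricating proteoglycan lubricin, had the highest ratio by the naming rule, from 29.9 CPM in CON to 2367 CPM in UV, a log2 ratio of 6.21 (5.26 to 7.63) against 2.18 (2.12 to 2.23) in other fibroblasts. It was found in 4 of 21 CON cells and 63 of 66 UV cells. Il33 had a log2 ratio of 3.56 (2.60 to 4.98) against 0.66 in other fibroblasts. Sfrp2, a secreted Wnt modulator, stood at 12.8 CPM in CON and 380 CPM in UV, where other fibroblasts had 128 and 170 CPM. Lcn2, Sntg1, Fmo2 and Sult1e1 each rested on 1 UMI in CON, with log2 ratios of 5.50 (3.59 to 11.4), 5.14 (3.23 to 11.0), 5.04 (3.12 to 10.9) and 4.92 (3.00 to 10.8). Gfra1 and Tmem176b rested on 2 and 3 UMIs, with ratios of 3.93 (2.37 to 7.31) and 3.74 (2.38 to 6.25). In other fibroblasts Lcn2, Sntg1, Fmo2, Sult1e1, Gfra1 and Tmem176b had ratios of 1.55, 3.39, 0.17, 2.12, 1.59 and 1.19.

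Of the genes lower in UV, Cyp26b1 had the lowest ratio by the naming rule. Grem1, which that rule did not take, stood at 324 CPM in CON and at 0 in UV, at least 86.7-fold lower. The cluster led by Grem1, F13a1 and Igfbp2 held 7 of 21 CON and 0 of 66 UV acute-phase cells. The ratios thus compare cells spread differently over the clusters. Cyp26b1, which degrades retinoic acid, stood at 525 CPM in CON and 16.2 CPM in UV, a log2 ratio of -4.97 (-5.97 to -4.19) against -1.06 in other fibroblasts; it was 0.71 when fibroblasts with traces of other cell types were left out, which left 3 CON cells. Hes1, a Notch target, stood at 721 and 122 CPM, and Cdkn1a, the cell cycle inhibitor p21, at 627 and 120 CPM, with log2 ratios of -2.56 and -2.39 against -1.65 and -0.98 in other fibroblasts. Ccl19, a chemokine of lymphoid stroma, had a log2 ratio of -3.91 against -2.35, but has near-identical copies in the annotation, so its counts are uncertain. Hspa1a, Snhg1, Gadd45b, S100a4, Rhob and Ier2 had log2 ratios from -2.37 to -1.91, against -1.71 to -0.35 in other fibroblasts; that of S100a4 turned to 0.57 without the fibroblasts with traces of other cell types. Of 32 immediate-early and heat shock genes, 16 were at least 2-fold lower and 1 higher in UV acute-phase cells, and 13 were lower and 0 higher in other fibroblasts, so for that group both kinds of fibroblast pointed the same way. Their medians were -0.97 and -0.59.

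Rux over UV compared 282 cells with 66 and asks what accompanied ruxolitinib ointment under the same irradiation; it shares the UV library with the comparison above. Of 7933 genes, 249 (3.14%) were at least 2-fold higher and 477 (6.01%) at least 2-fold lower in Rux acute-phase cells, against 0.592% and 1.36% of the same genes in other fibroblasts, whose sums were far larger. The medians were -0.06 and 0.02. The CPM of Saa3, Hp and Lcn2 was higher in Rux cells by log2 ratios of 1.22, 1.19 and 0.84, with the rule having set their lowest level. Timp1 was higher by 1.97 (1.81 to 2.13) in acute-phase cells and stood at -0.24 in other fibroblasts, and Tnc was higher by 2.61 (2.34 to 2.91) against -0.26.

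Of 20 measured chemokines and leukocyte factors, 6 were at least 2-fold higher and 0 lower in Rux than in UV acute-phase cells, with a median of 0.38, and 1 was higher in other fibroblasts, with a median of 0.18. Serpinb2 stood at 4.99 CPM in UV and 120 CPM in Rux, a log2 ratio of 4.42 (3.23 to 6.47) against -0.24 in other fibroblasts, and was found in 32 of 282 Rux cells. Cxcl3 and Cxcl5, ligands of the neutrophil receptor CXCR2, stood at 9.98 and 18.7 CPM in UV and 168 and 141 CPM in Rux, with log2 ratios of 3.99 and 2.87 against 0.15 and 0.22 in other fibroblasts. Both were at 0 in CON and found in a minority of Rux cells, 98 and 46 of 282. Il1rl1, the receptor of Il33, stood at 14.96 and 150 CPM, a log2 ratio of 3.27 (2.51 to 4.28) against 0.64. Ccn2, the matricellular protein CTGF, had a log2 ratio of 3.03 against 0.89. Fabp4, a fatty acid binding protein among the adipocyte markers, had 2.89 against 0.65, and Ctla2a, a cysteine protease inhibitor, 2.82 against 2.07. Rgs3 and Tm4sf1 had ratios of 2.34 and 2.16 against 1.09 and -0.76.

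Some genes known to respond to cytokine signalling through JAK kinases were at least 2-fold lower in Rux than in UV acute-phase cells, and others were not. Socs3, the feedback inhibitor induced by STAT3, stood at 1049, 579 and 100 CPM in CON, UV and Rux, a Rux over UV log2 ratio of -2.53 (-2.71 to -2.34) against -1.71 (-1.76 to -1.67) in other fibroblasts. Of 17 STAT3 targets and feedback genes, 6 were at least 2-fold lower and 0 higher in acute-phase cells with a median of -0.84, and 3 were lower in other fibroblasts with a median of -0.21. Cebpd, a C/EBP factor of the acute-phase response, stood at 1007, 546 and 227 CPM. Of 21 interferon-stimulated genes, 14 were at least 2-fold lower and 0 higher in acute-phase cells with a median of -1.47, and 9 were lower in other fibroblasts with a median of -0.65. Ifi27l2a stood at 55.5, 655 and 228 CPM, Gbp5 at 72.5, 23.7 and 2.29 CPM, and Irgm1 at 4.27 (1 UMI), 36.2 and 2.86 CPM. Il6 stood at 1370 CPM in UV and 491 CPM in Rux acute-phase cells, close to the 1113 and 475 CPM of the other fibroblasts. The interferon genes did not all go one way, with Ifitm2 at 0.34 and Ifitm3 at 0.03 in acute-phase cells. Ifitm2 and Ifitm3 were the most abundant of them, and the summed level of the list was 4136 CPM in UV and 3475 CPM in Rux. Socs3 and Il6 were lower in Rux than in UV in both kinds of fibroblast.

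By the naming rule Adamts4 had the lowest ratio. Adamts4, an aggrecanase, stood at 256, 94.8 and 6.49 CPM in CON, UV and Rux, a Rux over UV log2 ratio of -3.86 (-4.50 to -3.27) against -1.73 in other fibroblasts. Sult1e1, the estrogen sulfotransferase, and Sntg1, a syntrophin, had ratios of -3.37 and -3.09 against -2.06 and -1.68. Both genes were lower in Rux than in UV, at 18.7 and 26.5 CPM, and each had 4.27 CPM (1 UMI) in CON. Rrad, Zic1, Col4a4, Ptprd, Clu and Id2 had ratios between -2.97 and -2.04 against -1.34 to -0.19, but that of Rrad turned to 1.15 with a rule of 40 UMIs. Of the 2175 genes past 2-fold for UV over CON in acute-phase cells, 276 passed it in the same and 7 in the opposite direction in other fibroblasts, and of the 726 for Rux over UV 116 and 3 did, few of all genes having passed it in other fibroblasts. The 3 genes, named here after their values were seen, were Spp1, which encodes the matrix protein osteopontin, at -3.01 (-3.56 to -2.46) against 1.23, Gdf15, a stress-induced TGF-beta family member, at -2.01 (-3.01 to -0.92) against 1.05, and the homeobox gene Hoxc9 at 1.23 (0.08 to 3.02) against -1.07.

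**Figure D5:**
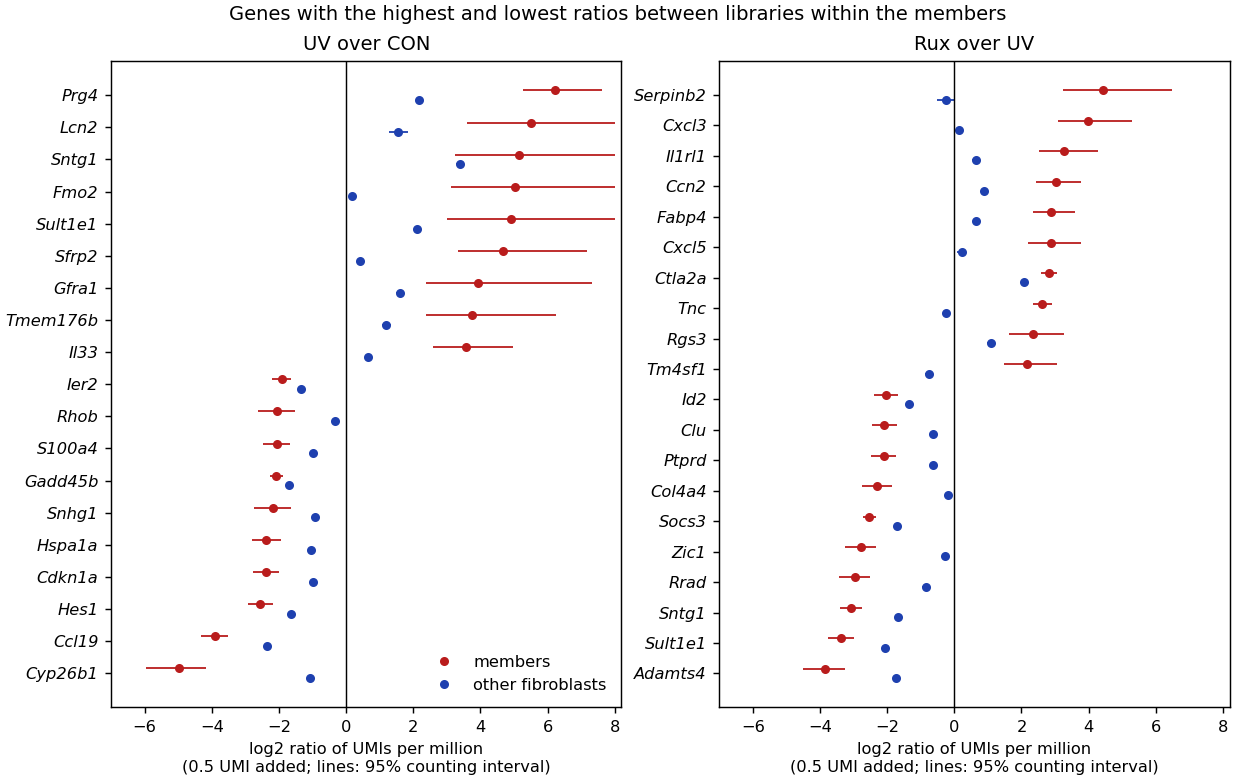
Log2 ratios of CPM (horizontal axis) for UV over CON and Rux over UV in acute-phase cells (red) and other fibroblasts (blue), for up to 10 higher and 10 lower genes in each panel, taken by the naming rule and described in the text. Points are ratios of 2 single libraries, lines are 95% counting intervals, with intervals past 8 ending at 8, and Tnc stands at 2.61 in acute-phase cells and -0.26 in other fibroblasts.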

How the data were processed

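Per the labels and the file headers, the authors aligned reads to mm10 with Cell Ranger (6.1.2 in the submitters' notes, 7.0.0 in the matrix headers) and deposited filtered matrices of UMI counts for 32285 genes, 1 per condition; the notes also name Seurat 5.3.0. From these counts, cells were filtered and fibroblasts and acute-phase cells defined by the rules given with the results. UMIs were summed over the cells of each group and library and scaled to 1000000 per sum (CPM). A log2 ratio had 0.5 UMI added to each sum and an exact 95% interval for counting error. A gene entered with at least 10 CPM in the mean of the sums compared, and 2-fold was the threshold of a call. With 1 library per condition no p-value or SD was computed.

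Named are Saa3, Hp, Lcn2, Timp1, Tnc and Serpina3n, genes of described lists, and, with at least 50 CPM and 100 UMIs, the 10 genes highest and lowest by their smallest ratio over the 3 libraries (same sign in each) and by their ratio in acute-phase cells for UV over CON and for Rux over UV; 1 gene that this rule takes is not reported here. Acute-phase cells, the 34 gene lists and the choices of test were made with earlier results of these data known. For thinning, UMIs of each cell were drawn without replacement to 4000. Clusters (Leiden, resolution 1.2, 20 neighbours, 25 components, 2000 variable genes) left out Saa3, Hp and Lcn2. Doublets were not removed; Scrublet scores were used for 1 alternative. Gene positions are from GENCODE M21 and promoter windows from RefSeq. The scripts were tested on simulated data and ran on Python 3.11.15 with numpy 2.4.6, scipy 1.17.1, pandas 2.3.3, scanpy 1.11.5, igraph 0.11.9 and matplotlib 3.10.9.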

Additional observations from a re-analysis of the deposited data

Results flagged for a closer look

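Saa3 and Hp were also seen outside the cells that met the fibroblast rule, in classes whose levels were not compared between libraries above. The levels given lay at 10 or more times the CON level, with counting intervals apart from it, and each value is 1 library. A fibroblast with any UMI of Ptprc, Epcam or Cdh5 falls into these marker-positive classes, and how many did was not tested. Saa3 in Rux stood at 324 CPM in 1233 Ptprc-positive cells (12.5 CPM in CON), with a UMI in 17.03% of cells against 3.49%. It stood at 99.1 CPM in 1720 Epcam-positive cells (2.32 CPM in CON), with a UMI in 18.3% against 1.96%, and at 118 CPM in 435 Cdh5-positive cells (6.43 CPM in CON), with a UMI in 10.3% against 1.33%. Hp in Epcam-positive cells stood at 6.74 CPM in UV and 23.1 CPM in Rux (0.240 CPM in CON), and in Cdh5-positive cells at 7.06 CPM in UV and 35.7 CPM in Rux (0.306 CPM in CON). In kept cells that were neither fibroblasts nor positive for any of these markers, Hp stood at 51.1 CPM in UV and 33.5 CPM in Rux (1.44 CPM in CON). The Saa3 levels of these classes lay below the 7041 CPM of acute-phase fibroblasts in Rux, which were selected on the rule genes. They lay above the 34.5 CPM of the other Rux fibroblasts, whose level the same rule capped. The part of free RNA in these values was not tested.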

How the results depend on the processing

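With 1 library per condition there is no replicate to leave out. No paired analysis was possible because each condition has 1 library and no spread between replicates can be estimated. The order of the shares, CON below UV below Rux, was the same in all 10 alternatives. At 10 UMIs the shares were 1.04, 2.31 and 7.96% in CON, UV and Rux and at 40 UMIs 0.305, 0.368 and 4.30%; thinning gave 1.03 and 1.69% in CON and UV. Leaving out fibroblasts with any UMI of 8 genes of other cell types left 3, 27 and 66 acute-phase cells and gave 0.270% in CON and 4.11% in Rux. Leaving out the leading cluster, chosen after seeing the data like the removal of the highest cell, of the clusters led by Dct and Spp1 and the other resolutions, gave 1.90% in Rux. The 14 genes higher in each library became 27 at 40 UMIs, 24 without traces, 7 at 50 CPM and 8 without the highest cell; the 25 lower became 43 at 40 UMIs, 55 with depth-weighted comparison cells, 5 at 50 CPM and 48 without the highest cell. The 2175 calls of UV over CON became 3538 without traces and 593 at 50 CPM, and the 726 of Rux over UV became 1408 at 40 UMIs, 1361 without traces, 1359 after thinning and 202 at 50 CPM. Of 404 measured genes of the lists, 37 were at least 2-fold higher in Rux acute-phase cells than in other Rux fibroblasts. Over all 8235 genes the share was 1.89%, and the lists were chosen with earlier results known. The count of list genes lay between 25 and 47 in the alternatives. The bases differed, with 25 of 297 genes at 50 CPM and 47 of 389 without traces. Signs turned for Coch in Rux against other fibroblasts (0.0858), Cyp26b1 (0.71) and S100a4 (0.57) for UV over CON, all without traces, and Rrad for Rux over UV at 40 UMIs (1.15); the cause was not tested. Over 65 named values and 15 settings, 708 values moved little, 223 moved more and 4 turned. Of the 65 named values, 58 moved more in at least 1 setting. Ratios against other fibroblasts entered this count for Rux only, so those of CON and UV were not checked in it. The limits are the 21 CON cells, the depth that differed between libraries, and a rule on absolute UMIs.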

Other observations

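Of 18 measured iron and haem genes 2, 1 and 3 were at least 2-fold higher in the acute-phase cells of CON, UV and Rux and 0 were lower. They were Trf and Slc39a14 in CON, Cp in UV, and Cp, Steap4 and Fth1 in Rux. Fth1, the ferritin heavy chain that stores iron, stood at 5767, 7605 and 13611 CPM against 5781, 6307 and 5953 CPM in other fibroblasts. In Rux, the 194 other fibroblasts of the leading cluster had Fth1 at 13892 CPM. Outside that cluster acute-phase cells had 8072 CPM against 5493.5 CPM, below the 2-fold line. Ftl1, the light chain, stood at 1710, 1853 and 1488 CPM against 2036, 2292 and 2122 CPM. Cd163, the haptoglobin-haemoglobin receptor of macrophages, was at 0 in the acute-phase cells of all 3 libraries.

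Of 18 unfolded protein response genes, which include chaperones of the endoplasmic reticulum, 1, 0 and 1 were at least 2-fold higher and 1, 0 and 0 lower, and the medians were 0.07, 0.12 and 0.48, against -0.00, -0.03 and -0.14 over all genes. Calr, Pdia3 and Pdia6, which fold secreted proteins, had log2 ratios of 0.95, 0.76 and 0.93 in Rux and 0.75, 0.66 and 0.76 in UV, while the response factor Atf4 stood at -0.33 and -0.09. Of 16 measured senescence and growth arrest genes 1, 1 and 0 were higher and 3, 2 and 4 lower, with medians of 0.07, -0.39 and -0.40.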
